A study of Mus musculus with 4 samples.

Results

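The endoplasmic reticulum (ER) stress response was read from 10 genes of the hypothalamus, namely *Hspa5*, *Hsp90b1*, *Calr*, *Pdia4*, *Sdf2l1*, *Dnajb9*, *Herpud1*, *Xbp1*, *Atf4* and *Ddit3*. They were chosen by name, with earlier results of these data known but by a rule that uses no level, and the counts of all RefSeq transcripts with the same gene symbol were summed, so that the genes are 10 of 16339 in the table. RNA was sequenced in 4 libraries from the hypothalamus of male C57BL/6 mice, 2 of wild type mice (WT WD) and 2 of mice lacking *Tas1r3* in the whole body (*Tas1r3*-/- WD), which were littermates from heterozygous crosses. Both groups were 8 weeks old at the start and received Western diet (WD), a 60% fat diet with a 30% sucrose solution, for 12 weeks, so that no group on a standard diet entered the comparison. Library totals, as deposited estimated counts, were 5917470 for WT WD replicate 1 and 6177210 for replicate 2, and 6273772 for *Tas1r3*-/- WD replicate 1 and 5874782 for replicate 2. The methods of the study name more mice per group for the sequencing than the libraries analysed here, and the labels did not say whether a library came from its own mouse, so p-values measure the spread between these libraries, which may be technical in part.

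Proteins of the secretory pathway fold in the ER, and unfolded proteins there are sensed by IRE1, PERK and ATF6, which together start the unfolded protein response (UPR). IRE1 splices *Xbp1* mRNA, PERK phosphorylates eIF2α and thereby favours translation of ATF4 and later CHOP, the product of *Ddit3*, and ATF6 is cleaved in the Golgi apparatus to a transcription factor. Chaperone genes such as *Hspa5*, which encodes BiP, are classical targets of ATF6 and XBP1. In the hypothalamus, ER stress is a known companion of high-fat feeding and of impaired leptin and insulin signalling.

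*Tas1r3*, the gene targeted in the knockout (ENSMUSG00000029072, chr4:155943725-155947819, minus strand, GRCm39), had 35.3 and 27.0 estimated counts in the WT WD pair and 7 and 7.01 in the knockout pair. The knockout libraries were therefore both below the WT libraries, as their labels state, at a log2 fold change of -2.13 (standard error 0.42) and an adjusted p of 0.757 by the quasi-likelihood test of edgeR, adjusted over all genes tested.

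The tissue label was checked against marker genes before the ER stress genes were compared. Transcription factors of the hypothalamus summed to 338 CPM (counts of a gene scaled to the size of its library) in WT WD replicate 1, 15.6 in WT WD replicate 2, and 254 and 240.3 in *Tas1r3*-/- WD. All 12 of them were lowest in WT WD replicate 2, where *Nkx2-1*, *Nkx2-4*, *Nr5a1* and *Hmx3* were at 0 and *Six3*, the most abundant, was at 7.43 CPM against 54.8 to 68.3 CPM in the other libraries. A count of 0 allows up to 3 counts, or 0.487 CPM in that library, by counting error only. Hypothalamic neuropeptides were also lowest there, in 16 of 16 genes, with *Gnrh1* at 0, at a summed 98.0 CPM against 1621 to 2261 CPM. *Pmch*, the precursor of melanin-concentrating hormone and the most abundant of them, was at 6.65 CPM against 373 to 767 CPM. The library labelled WT WD replicate 2 instead held 3720.2 CPM of thalamic markers, against 400.3 to 731 CPM elsewhere, led by *Adarb1* at 949 CPM and with *Prkcd* at 584 CPM. It also held 781 CPM of choroid plexus markers against 83.8 to 94.9 CPM, of which *Ttr* made up 677 CPM. Of these 10 markers, 7 were highest there, the ones apart from *Ttr* at 3.29 to 18.9 CPM, whereas *Kl* and *Clic6* lay within the range of the other libraries and *Prlr* was lowest, at 7.50 CPM against 28.1 to 42.8 CPM.

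A second library stood apart in another way, since *Tas1r3*-/- WD replicate 1 had 1456 CPM of anterior pituitary genes, led by *Gh* at 760.1 CPM, against 2.24 to 14.6 CPM in the other 3. *Gh*, *Prl*, *Cga*, *Fshb*, *Tshb*, *Pou1f1*, *Pitx1* and *Ghrhr* were each at 0 in at least 1 of those 3. Markers of cortex and hippocampus, with *Camk2a* the most abundant, summed to 1264 CPM in WT WD replicate 2 against 780 to 819 CPM, and those of striatum, with *Gng7* the most abundant, to 491 CPM in *Tas1r3*-/- WD replicate 1 against 278 to 319 CPM. Markers of astrocytes, led by *Aldoc*, summed to between 3553 and 3822 CPM and those of oligodendrocytes, with *Mbp* the most abundant, to between 5238 and 6508 CPM. Microglia, with *Csf1r* the most abundant marker, summed to 311 to 369 CPM, endothelium with *Flt1* to 258 to 292 CPM, and ependyma and tanycytes with *Foxj1* to 136 to 159 CPM. Within this last list the genes differed in direction in WT WD replicate 2, where the ependymal *Foxj1* was at 56.9 CPM against 27.1 to 31.0 CPM and *Ccdc153* at 28.7 CPM against 4.97 to 9.62 CPM, while *Col23a1* was at 2.64 CPM against 27.3 to 50.6 CPM and *Crym* at 0.329 CPM against 3.85 to 17.3 CPM. The part of these differences in tissue in the values of the ER stress genes was not tested beyond leaving libraries out, and each of the 10 genes is therefore given with and without WT WD replicate 2. Other named genes and single transcripts are given from all 4 libraries, and their groups are given both ways. In bulk RNA of this kind, fewer cells of a type and less RNA per cell cannot be told apart.

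**Figure D1:**
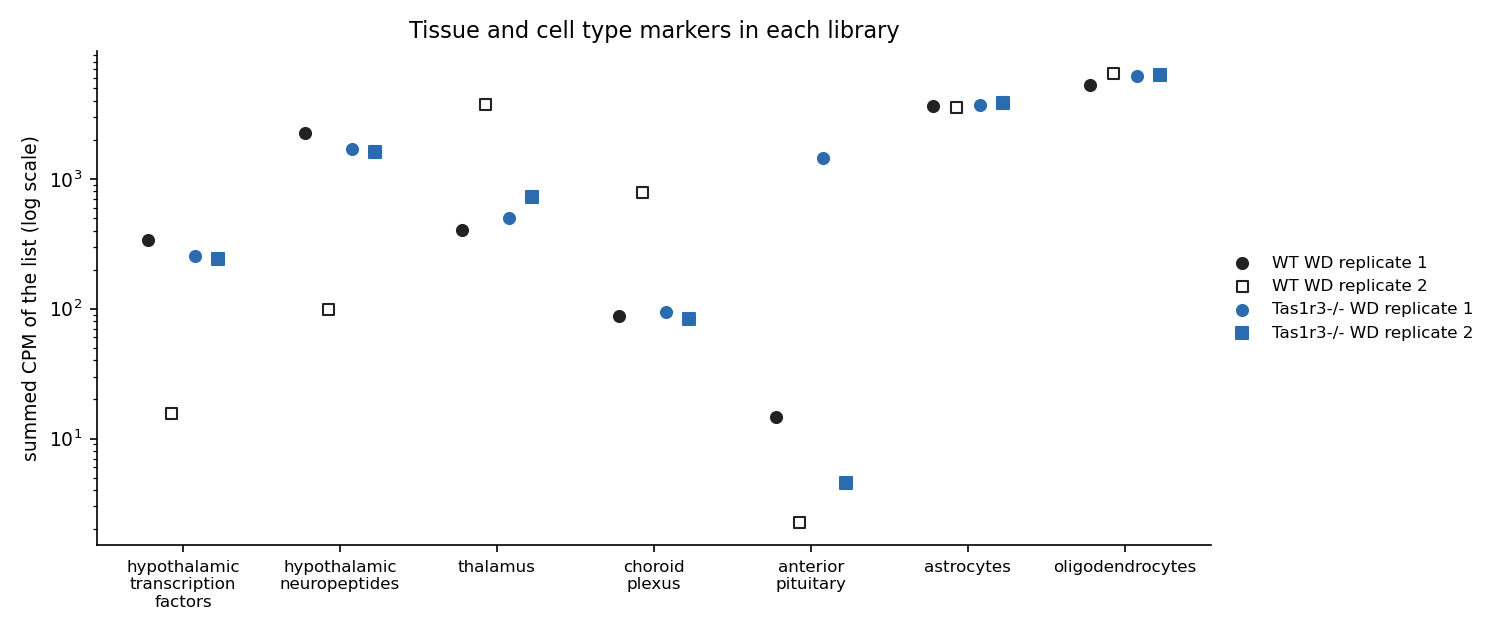
Summed CPM (log scale) of marker gene lists in each of the 4 libraries, with WT WD in black and *Tas1r3*-/- WD in blue. WT WD replicate 2 (open square) is lowest for both hypothalamic lists and highest for thalamus and choroid plexus, *Tas1r3*-/- WD replicate 1 is highest for pituitary, and the libraries lie close together for astrocytes and oligodendrocytes.

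Promoters of the 10 genes were searched for the sequences that UPR transcription factors are known to bind. Some of these sequences were first described in promoters of genes such as *Hspa5*, *Hsp90b1*, *Calr* and *Herpud1*, so their presence there is known background and no independent result. The ER stress response element (ERSE) was searched as CCAAT and CCACG with 9 bases between them, ERSE-II as ATTGG and CCACG with 1 base between them, the UPR element as TGACGTGG and the amino acid response element of ATF4 as TGATGNAAN, on both strands. RefSeq sequences of the GRCm38.p6 build, from 250 bases before to 50 bases after the transcription start, were found for all 10 genes, and each matched GRCm39 exactly at 1 place. ERSE matches were present in 3 of 10 promoters (30.0%), against 35 of 27025 promoters in the reference table (0.13%), and ERSE-II in 1 of 10, against 10 of 27025 (0.037%). The 4 promoters with a match to either are shown because these are the ones of the 10 genes that hold an element of this response, namely those of the chaperone genes *Hspa5*, *Hsp90b1* and *Calr* and of *Herpud1*, with every matched motif in capitals and the rest in lower case. They lie at chr2:34661852-34662151 on the plus strand, chr10:86541259-86541558 on the minus strand, chr8:85573511-85573810 on the minus strand and chr8:95112807-95113106 on the plus strand of GRCm39, in this order, and are written 5′ to 3′ along the gene.
Hspa5: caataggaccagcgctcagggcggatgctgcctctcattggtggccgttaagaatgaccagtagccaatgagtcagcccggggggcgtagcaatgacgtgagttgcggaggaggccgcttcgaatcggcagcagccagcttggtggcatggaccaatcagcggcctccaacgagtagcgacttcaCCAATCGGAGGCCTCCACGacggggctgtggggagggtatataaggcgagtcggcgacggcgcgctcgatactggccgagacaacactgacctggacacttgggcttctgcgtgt
Hsp90b1: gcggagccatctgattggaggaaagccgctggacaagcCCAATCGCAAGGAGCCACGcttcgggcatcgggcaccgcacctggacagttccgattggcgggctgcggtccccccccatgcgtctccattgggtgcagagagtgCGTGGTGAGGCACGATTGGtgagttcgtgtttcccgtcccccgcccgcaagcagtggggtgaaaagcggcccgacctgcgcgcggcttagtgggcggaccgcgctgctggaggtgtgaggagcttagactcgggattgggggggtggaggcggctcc
Calr: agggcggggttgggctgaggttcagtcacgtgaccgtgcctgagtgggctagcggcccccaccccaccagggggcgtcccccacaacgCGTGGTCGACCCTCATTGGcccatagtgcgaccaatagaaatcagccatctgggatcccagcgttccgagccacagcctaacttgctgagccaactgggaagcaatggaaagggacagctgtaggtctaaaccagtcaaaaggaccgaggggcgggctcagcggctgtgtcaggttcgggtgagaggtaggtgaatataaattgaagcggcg
Herpud1: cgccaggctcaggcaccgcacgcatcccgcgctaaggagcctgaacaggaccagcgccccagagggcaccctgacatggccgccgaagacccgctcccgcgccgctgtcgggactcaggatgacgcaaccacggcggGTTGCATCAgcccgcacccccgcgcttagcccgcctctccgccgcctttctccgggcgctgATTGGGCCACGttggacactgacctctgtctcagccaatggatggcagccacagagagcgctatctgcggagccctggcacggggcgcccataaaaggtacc

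In *Hspa5* the ERSE lay from 65 to 47 bases before the start, and its letters were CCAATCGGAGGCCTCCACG. *Hsp90b1* had a match on each strand, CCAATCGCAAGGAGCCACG on the plus strand and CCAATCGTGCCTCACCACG on the minus strand, so that the latter appears above as its reverse complement. *Calr* had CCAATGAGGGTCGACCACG on the minus strand. *Herpud1* held the ERSE-II ATTGGGCCACG from 52 to 42 bases before the start and the amino acid response element TGATGCAAC on the minus strand, a motif present in 4.04% of all promoters. The UPR element was in none of the 10 promoters, against 0.607% of all promoters. No match was found in *Pdia4*, *Sdf2l1*, *Dnajb9*, *Xbp1*, *Atf4* or *Ddit3*, which says only that these letters are not in this window. Such a match is a description of the sequence and was not tested for binding.

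**Figure D2:**
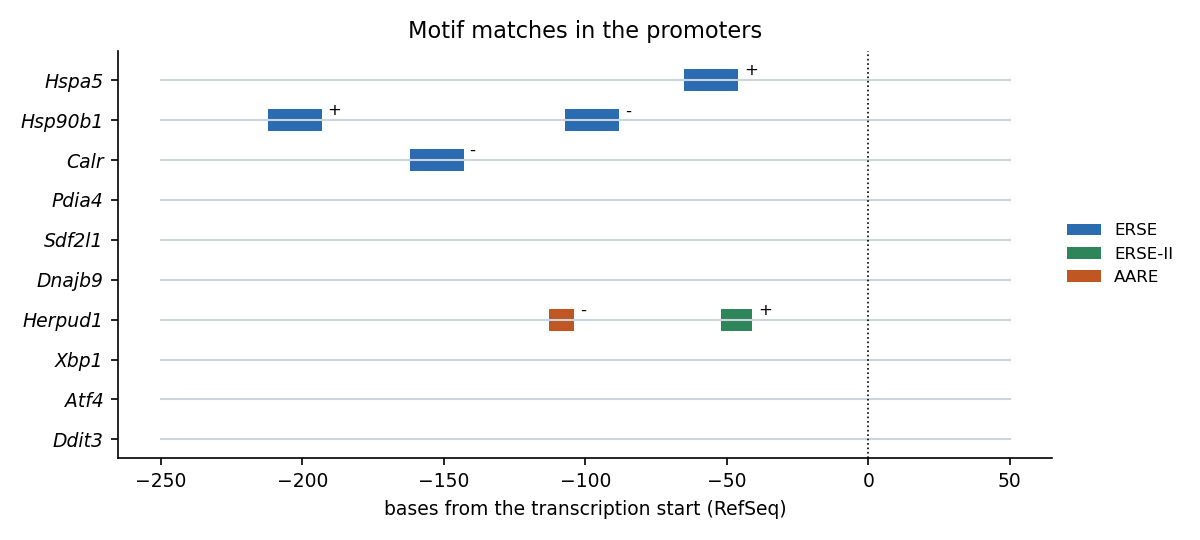
Position of motif matches in the 10 promoters, in bases from the RefSeq transcription start, with the strand of each match beside it. ERSE matches are in *Hspa5*, *Hsp90b1* and *Calr*, *Herpud1* has ERSE-II and an amino acid response element (AARE), and the other 6 promoters have none.

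Of the 3 chaperones *Hspa5*, *Hsp90b1* and *Calr*, the first differed most between libraries. *Hspa5* (ENSMUSG00000026864, chr2:34661982-34668880, plus strand), the gene of BiP, which binds unfolded proteins and holds the UPR sensors inactive, was at 359 and 198 CPM in WT WD replicates 1 and 2 and at 399.5 and 390.1 CPM in *Tas1r3*-/- WD. Both knockout libraries were above both WT libraries, but 3 of the libraries lay close together and WT WD replicate 2 reached 51.8% of their mean. The means were 279 ± 113 CPM (SD, n = 2) and 395 ± 6.68 CPM (SD, n = 2), at a log2 fold change of 0.50 (standard error 0.30) and an adjusted p of 0.757 by edgeR. With WT WD replicate 2 left out the log2 fold change was 0.14 (adjusted p = 0.572, edgeR), with the lone WT library assumed to vary like the knockout pair. It was 1.00 (adjusted p = 0.000152, edgeR) without WT WD replicate 1, so that the size of the difference depended on which WT library was used.

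*Hsp90b1* (ENSMUSG00000020048, chr10:86526073-86541446, minus strand) encodes GRP94, the HSP90 of the ER lumen. It was at 442 and 353 CPM in the WT WD pair and at 437 and 430.1 CPM in the knockout pair. The groups overlapped, and again WT WD replicate 2 alone was low, at 80.8% of the mean of the others. The log2 fold change was 0.13 (standard error 0.16, adjusted p = 0.840 by edgeR), and -0.03 without WT WD replicate 2. *Calr* (ENSMUSG00000003814, chr8:85567946-85573667, minus strand), the gene of the lectin chaperone and calcium store calreticulin, was at 374 and 313 CPM in the WT WD pair and 376 and 332 CPM in the knockout pair. These groups overlapped as well, at a log2 fold change of 0.04 (standard error 0.16, adjusted p = 0.951 by edgeR), and -0.08 without WT WD replicate 2. The 3 genes with an ERSE in the promoter thus had their lowest level in the same library, WT WD replicate 2. So did *Pdia4*, *Sdf2l1*, *Dnajb9* and *Xbp1*, whose promoters had no match. Of 17 tested genes with an ERSE outside the 10, 41.2% were lowest there, against 34.6% of all genes. Among the other 3 libraries, both knockout libraries exceeded WT WD replicate 1 for *Hspa5* alone of the 3 genes.

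*Pdia4* (ENSMUSG00000025823, chr6:47770077-47790462, minus strand), a protein disulfide isomerase that forms disulfide bonds, was at 50.7 and 35 CPM in the WT WD pair and at 56.3 and 64.3 CPM in the knockout pair. The knockout libraries were above the WT libraries whichever WT library was used. Means were 42.9 ± 11.1 and 60.3 ± 5.67 CPM (SD, n = 2), at a log2 fold change of 0.49 (standard error 0.22, unadjusted p = 0.0732, adjusted p = 0.757 by edgeR), and of 0.25 without WT WD replicate 2 (adjusted p = 0.477).

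*Sdf2l1* (ENSMUSG00000022769, chr16:16948002-16950252, minus strand) encodes an ER protein found in complexes with BiP and its cochaperones. It was the least abundant of the 10 genes, with 48.0 and 35.3 estimated counts in the WT WD pair and 71.4 and 70.6 in the knockout pair, or 8.23, 5.80, 11.4 and 12.4 CPM. Both knockout libraries were above both WT libraries, and the gap to WT WD replicate 1 was wider than the gap between the knockout libraries. The log2 fold change of 0.77 (standard error 0.28) was the largest of the 10, with an unadjusted p of 0.0423 and an adjusted p of 0.757 by edgeR. It was 0.53 without WT WD replicate 2 (adjusted p = 0.463, edgeR).

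*Dnajb9* (ENSMUSG00000014905, chr12:44252341-44257171, minus strand), the gene of the BiP cochaperone ERdj4 and a classical target of XBP1, was at 42.0 and 38.8 CPM in the WT WD pair and at 46.3 and 49.1 CPM in the knockout pair. Its groups did not overlap and its replicates were close, at a log2 fold change of 0.24 (standard error 0.13, adjusted p = 0.757 by edgeR) and 0.18 without WT WD replicate 2. *Herpud1* (ENSMUSG00000031770, chr8:95113022-95123141, plus strand) encodes a membrane protein that organises the complexes for ER-associated degradation. It was at 86.6 and 91.3 CPM in the WT WD pair and 92.8 and 106 CPM in the knockout pair. Unlike the chaperones, *Herpud1* was not lowest in WT WD replicate 2, and the gap between the groups, from 91.3 to 92.8 CPM, was smaller than the gap within either group. Its log2 fold change was 0.16 (standard error 0.14, adjusted p = 0.777 by edgeR), and 0.20 without WT WD replicate 2. Leaving out a knockout library gave 0.05 (replicate 2 left out) or 0.25 (replicate 1 left out).

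The 3 transcription factors of the response did not share a direction. *Xbp1* (ENSMUSG00000020484, chr11:5470606-5483027, plus strand), whose mRNA IRE1 splices, was at 120.5 and 98.8 CPM in the WT WD pair and at 128 and 127 CPM in the knockout pair. Knockout libraries were above WT libraries, at a log2 fold change of 0.22 (standard error 0.15, adjusted p = 0.764 by edgeR), and of 0.08 without WT WD replicate 2. Against WT WD replicate 2 as the only WT library it was 0.37 with an adjusted p of 0.0388 by edgeR, which is under 1.5-fold. The table lists 1 transcript for *Xbp1*, so the spliced form was not measured separately. *Atf4* (ENSMUSG00000042406, chr15:80139372-80141745, plus strand), the activator of amino acid and redox genes downstream of PERK, was at 144 and 165 CPM in the WT WD pair and at 127 and 141 CPM in the knockout pair. It was the only one of the 10 genes with both knockout libraries below both WT libraries, at a log2 fold change of -0.20 (standard error 0.14, adjusted p = 0.765 by edgeR), and -0.10 without WT WD replicate 2. ATF4 is regulated mainly in translation, which these mRNA levels do not measure.

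*Ddit3* (ENSMUSG00000025408, chr10:127124268-127132163, plus strand), the gene of the proapoptotic factor CHOP, was at 28.0 and 33.2 CPM in the WT WD pair and at 25.9 and 34.7 CPM in the knockout pair. The WT libraries lay between the knockout libraries, at a log2 fold change of -0.01 (standard error 0.21, adjusted p = 0.989 by edgeR) and 0.11 without WT WD replicate 2.

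**Figure D3:**
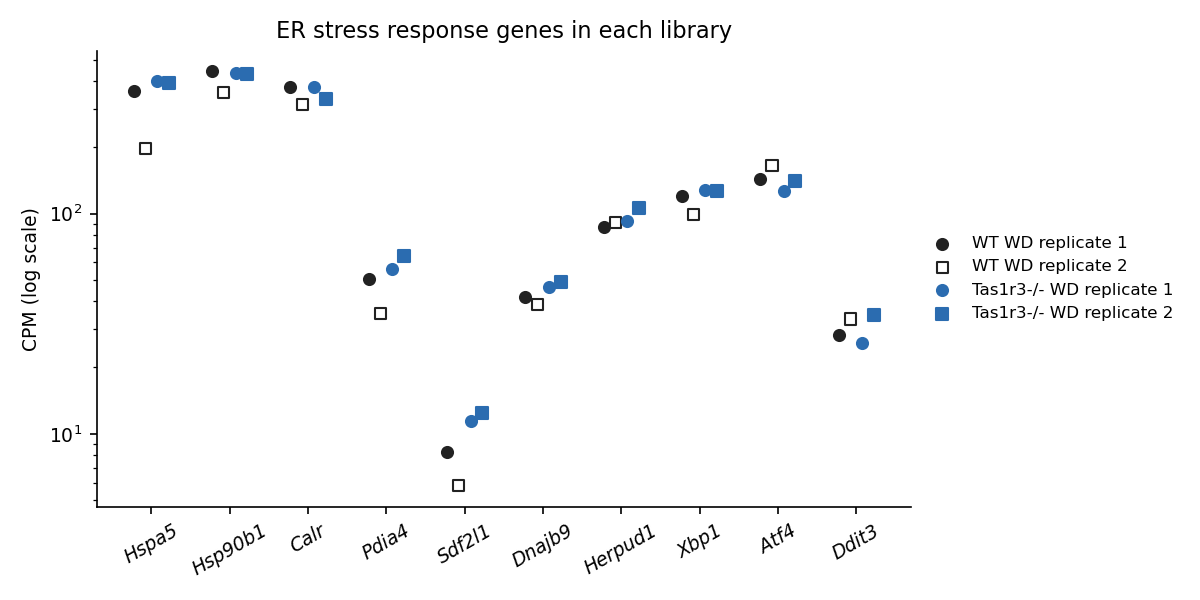
CPM (log scale) of each ER stress response gene in each of the 4 libraries, with WT WD in black and *Tas1r3*-/- WD in blue. The open square, WT WD replicate 2, is lowest for 7 of the 10 genes, and the other 3 libraries lie close together for *Hspa5* and *Hsp90b1*.

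Across the 10 genes, all of which passed the filter on low counts, 8 had a higher and 2 a lower fitted level in *Tas1r3*-/- WD, against 7031 higher and 7313 lower of all 14344 genes tested. Both knockout libraries were above both WT libraries in 6 genes, against 20.6% of all genes tested, and below them in 1 gene, against 18.9%, while 3 overlapped. None of the 10 was a differentially expressed gene (DEG), defined by an adjusted p under 0.05 and at least 1.5-fold by edgeR, and neither was any of the 14344 genes tested (0.0%). At an unadjusted p under 0.05 there was 1 of the 10, *Sdf2l1*, against 772 of all genes (5.38%), or 3.5% in its direction. DESeq2 called 9 genes in all and limma 0, with none of the 10 among them. The median log2 fold change of the 10 genes was 0.19, against -0.01 over all genes tested. Of the 10, 7 were lowest in WT WD replicate 2 (70.0%), as were 34.6% of all genes tested.

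Without WT WD replicate 2, both knockout libraries were above WT WD replicate 1 in 6 genes, against 37.6% of all genes, and below it in 2, against 37.4%. The median log2 fold change was then 0.13, and none of the 10 was among the 32 DEGs (0.217%). Without WT WD replicate 1, which leaves the library with few hypothalamic transcripts as the only WT library, the median was 0.30. *Hspa5*, *Pdia4* and *Sdf2l1* were then higher DEGs, against 7.55% of all genes. Summed over the 10 genes, the libraries held 1655 and 1332 CPM in the WT WD pair and 1701 and 1687 CPM in the knockout pair, so that 3 libraries were close and WT WD replicate 2 was low.

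**Figure D4:**
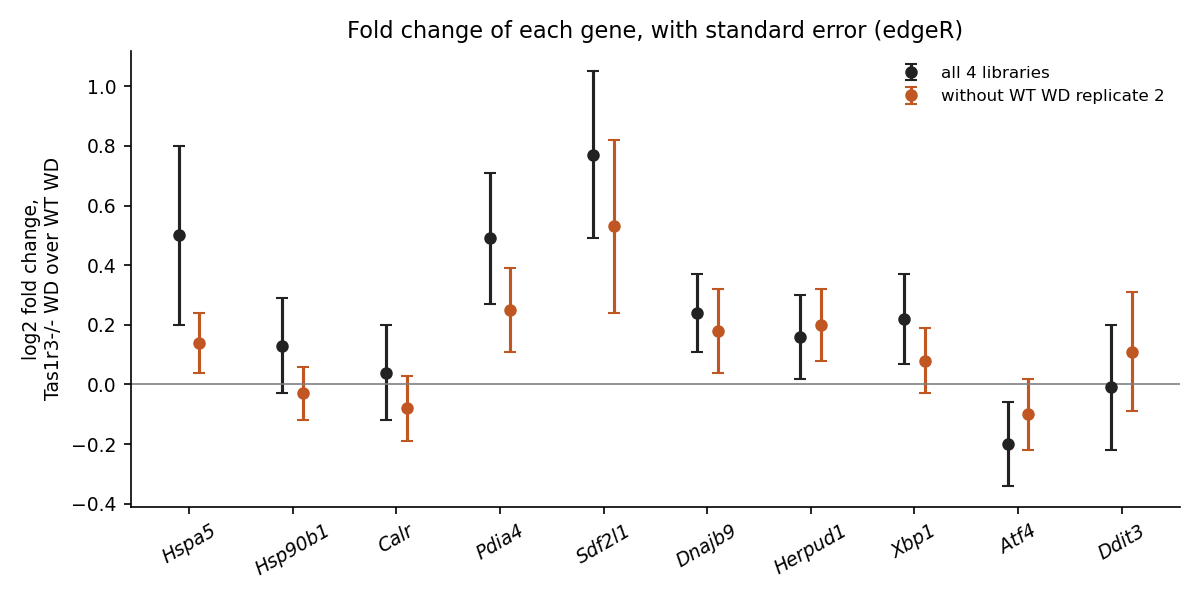
Log2 fold change of each gene, *Tas1r3*-/- WD over WT WD, with its standard error by edgeR, from all 4 libraries (black) and without WT WD replicate 2 (orange). Leaving this library out takes *Hspa5* from 0.50 to 0.14 and turns the sign of *Hsp90b1*, *Calr* and *Ddit3*.

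Levels were compared between genes per kilobase of the canonical transcript, as means of the 4 libraries. *Calr* was highest at 152 CPM per kb, followed by *Hsp90b1* at 147, *Atf4* at 82.9, *Hspa5* at 68.0 and *Xbp1* at 60.2 CPM per kb. *Ddit3* followed at 31.1, *Herpud1* at 30.2, *Dnajb9* at 17.9, *Pdia4* at 9.39 and *Sdf2l1* at 8.50 CPM per kb. Neighbours such as *Calr* and *Hsp90b1*, or *Ddit3* and *Herpud1*, did not differ beyond their spread over libraries. The order depended on the length used, since per kilobase of coding sequence *Hspa5* was at 171 CPM, next to *Hsp90b1* at 173, and above *Atf4* at 138. It also depended on the library, since per kb of the canonical transcript *Hspa5* was at 40.1 CPM in WT WD replicate 2, below *Xbp1* at 50.2, and at 80.7 CPM in *Tas1r3*-/- WD replicate 1, above *Atf4* at 73.0. In WT WD replicate 1 and *Tas1r3*-/- WD replicate 2, *Hspa5* at 72.4 and 78.8 CPM per kb stood between *Atf4* at 82.8 and 81.2 and *Xbp1* at 61.2 and 64.4.

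Several of these genes were listed with a pair of RefSeq transcripts, between which the authors' estimates divided the reads. The less abundant transcript of *Ddit3* had 25.96 and 24.86 estimated counts in the WT WD pair and 2.50 and 6.69 in the knockout pair. It made up 15.9% and 12.3% of *Ddit3* in the WT WD pair and 1.55% and 3.38% in the knockout pair, so that both knockout libraries were below both WT libraries although the gene as a whole overlapped. Its log2 fold change was -2.31 (standard error 0.82, unadjusted p = 0.0374, adjusted p = 0.940 by edgeR over 25725 transcripts, of which 1183 had an unadjusted p under 0.05 and 0 an adjusted one). The main *Ddit3* transcript, at 137.5 and 177.0 against 159.0 and 191.4 estimated counts, had a log2 fold change of 0.16. For *Hspa5*, both transcripts were lowest in WT WD replicate 2, with 1072 and 675.5 counts in WT WD against 1349 and 1322 for the first, and 1021 and 531.5 against 1143 and 907.4 for the second. The main *Atf4* transcript had a log2 fold change of -0.30 and the other 0.48, neither past the test, with adjusted p of 0.940 and 0.941.

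Wider groups of UPR genes were then described, each by its counts, for which 7031 higher and 7313 lower of the 14344 genes tested, 20.6% above and 18.9% below without overlap, and a median of -0.01 are the background. None of the genes of these groups was a DEG by edgeR, DESeq2 or limma. At an unadjusted p under 0.05 there were 1 lower ER chaperone, 1 higher gene of ER-associated degradation, 2 higher UPR sensors, 4 higher ATF4 and CHOP targets, 0 translocon genes and 5 higher heat shock genes, against 3.5% of all genes that were higher and 1.88% that were lower at this p. Without WT WD replicate 2, the background for the counts given below is 37.6% of all genes above and 37.4% below WT WD replicate 1. Of 20 other ER chaperones and folding enzymes, 13 had a higher and 7 a lower fitted level in *Tas1r3*-/- WD, 3 lay above and 1 below without overlap, and the median log2 fold change was 0.07. *Canx*, the gene of the membrane lectin calnexin, was at 434 and 380.5 CPM in the WT WD pair and at 428 and 463 CPM in the knockout pair. *Hyou1*, a large ER chaperone that acts as an exchange factor of BiP, was at 251 and 135 CPM in the WT WD pair and 242 and 235 CPM in the knockout pair. *Hyou1* shared with *Hspa5* the low level in WT WD replicate 2, but it was highest in WT WD replicate 1 and its groups overlapped. *Pdia3*, which acts on glycoproteins with calnexin, was at 199.7 and 174 against 208 and 212 CPM. *Dnajc3*, a BiP cochaperone, was at 62.1 and 72.3 against 86.6 and 73.1 CPM. *Ero1a* was at 67.4 and 61.1 against 73.0 and 70.7 CPM (log2 fold change 0.16). *Ppib*, the cyclophilin of the ER, was the gene below without overlap, at 73.5 and 76.4 against 58.6 and 56.6 CPM (log2 fold change -0.38, standard error 0.12, unadjusted p = 0.0243, adjusted p = 0.757 by edgeR). Chosen after their values were seen, *Manf* at 29.3, *Pdia6* at 84.8 and *Creld2* at 13.8 CPM in WT WD replicate 2 were below the 45.1, 126 and 22.9 CPM that were the lowest in the other 3 libraries. Other chaperone genes went the other way there, with *Ero1b* at 32.4 CPM against 15.7 to 17.2 CPM and *Pdia5* at 7.76 CPM against 2.1 to 4.81 CPM. *Ppib*, *Selenof* and *Dnajb11* were also highest in that library. In this list 14 of 20 genes were lowest in WT WD replicate 2 (70.0%), against 34.6% of all genes, and without that library its median was -0.06, with 4 genes above (37.6% of all genes) and 8 below (37.4% of all genes). With WT WD replicate 2 as the only WT library, 15 lay above and 5 below, and the median was 0.26. Of all 14344 genes tested, 5986 lay above that library and 5815 below, with a median of 0.02.

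ER-associated degradation, which returns misfolded proteins to the cytosol for the proteasome, had 12 higher and 8 lower of 20 genes, 6 above and 4 below without overlap, and a median of 0.05. *Sel1l*, the partner of the ubiquitin ligase HRD1, was at 211 and 189.5 CPM in the WT WD pair and at 247 and 238 CPM in the knockout pair (log2 fold change 0.28, standard error 0.13, unadjusted p = 0.0894, adjusted p = 0.757 by edgeR). *Edem3*, which trims mannose from misfolded glycoproteins, was at 57.9 and 48.4 against 70.9 and 74.2 CPM (log2 fold change 0.45, standard error 0.14, unadjusted p = 0.0274, adjusted p = 0.757 by edgeR). *Edem1* had a log2 fold change of 0.40 and *Edem2* one of -0.26, so that this family did not share a direction. *Vcp*, the ATPase that extracts the substrates, was at 297 and 305 against 279 and 295 CPM, and *Os9* and *Aup1* had log2 fold changes of -0.06 and -0.11. Without WT WD replicate 2, 9 genes lay above and 8 below, against 37.6% and 37.4% of all genes, with a median of 0.04.

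The sensors and signalling genes of the UPR had 7 higher and 11 lower of 18 genes, 3 above and 4 below without overlap, and a median of -0.08. *Creb3l2*, a membrane-bound transcription factor related to ATF6, was at 15.9 and 13.0 CPM in the WT WD pair and at 25.8 and 22.0 CPM in the knockout pair (log2 fold change 0.74, standard error 0.20, unadjusted p = 0.0152, adjusted p = 0.757 by edgeR). *Ppp1r15b*, a subunit of the phosphatase that acts on eIF2α, was at 55.6 and 59.6 against 75.7 and 76.8 CPM (log2 fold change 0.41, unadjusted p = 0.0204, adjusted p = 0.757 by edgeR). *Atf6b* went the other way, at 45.3 and 55.4 against 39.6 and 35.9 CPM (log2 fold change -0.42, adjusted p = 0.757 by edgeR). So did *Mbtps2*, a protease that cleaves ATF6, at 13.7 and 19.2 against 12.8 and 12.9 CPM (log2 fold change -0.35). The knockout mean of *Mbtps2* was 0.94 times its level in WT WD replicate 1. *Rtcb*, the ligase of spliced *Xbp1*, *Wfs1* and *Mbtps1*, the most abundant of the list, had log2 fold changes of -0.02, 0.11 and -0.09. *Ern1*, the gene of IRE1, was another one with a low level in WT WD replicate 2, at 6.25 CPM against 14.1 to 16.1 CPM, and was chosen after its values were seen. In the list as a whole 5 of 18 genes (27.8%) were lowest in that library, against 34.6% of all genes, and *Atf6* at 49.0 against 38.7 to 40.4 CPM, *Atf6b* and *Mbtps2* were highest there. The median without WT WD replicate 2 was -0.06, with 5 genes above and 8 below.

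Of 24 targets of ATF4 and CHOP, 22 passed the filter, *Stc2* and *Trib3* being the other two, and 12 were higher and 10 lower, with 7 above and 2 below without overlap and a median of 0.02. *Atf3*, a stress-induced transcription factor, was at 1.37 and 0.822 CPM in the WT WD pair and at 3.69 and 4.2 CPM in the knockout pair (log2 fold change 1.83, standard error 0.47, unadjusted p = 0.0117, adjusted p = 0.757 by edgeR). *Nupr1*, another stress-induced regulator, was at 1.37 and 0.493 against 5.61 and 2.27 CPM (log2 fold change 2.07, unadjusted p = 0.0388, adjusted p = 0.757 by edgeR), and its lowest value was that of 3 counts. *Cth*, an enzyme of cysteine synthesis, was at 3.26 and 6.25 against 2.55 and 2.27 CPM, with a log2 fold change of -0.97, and *Cebpb* had -0.20. The tRNA synthetase genes *Aars* and *Nars* and the amino acid transporter gene *Slc3a2*, the most abundant of the list, had log2 fold changes of -0.23, -0.04 and -0.13. The amino acid response element was in 7 of 20 promoters found for this list (35%), against 4.04% of all promoters. They were those of *Atf3*, *Nupr1*, *Aars*, *Asns*, *Chac1*, *Slc7a11* and *Trib3*. *Asns* and *Chac1* had log2 fold changes of -0.02 and -0.08, *Slc7a11* had 0.12, and *Trib3* was not tested. The same 22 genes had a median of 0.00 without WT WD replicate 2, with 9 genes above and 6 below.

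The translocon and signal peptide genes, which bring new proteins into the ER, had 12 higher and 6 lower of 18, with 4 above and 0 below without overlap, and a median of 0.09. *Ssr1*, a subunit of the translocon-associated protein complex, was at 203 and 137 CPM in the WT WD pair and at 214 and 211 CPM in the knockout pair, and thus also had 1 low WT library. *Spcs1*, of the signal peptidase, had a log2 fold change of 0.30, *Tram1* 0.19, *Ssr3* 0.17 and *Sec62* -0.07. In this list 13 of 18 genes (72.2%) were lowest in WT WD replicate 2, against 34.6% of all genes. That share was 45.0% for ER-associated degradation, 31.8% for ATF4 and CHOP targets and 40.0% for heat shock genes. The median of the translocon list without WT WD replicate 2 was 0.01, with 6 above and 5 below.

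Heat shock genes whose proteins act outside the ER, mostly in the cytosol, were described beside the UPR, with *Hspd1* and *Hspe1* as the genes of mitochondrial chaperones among them. Of 15, 13 were higher and 2 lower, 10 lay above and 0 below without overlap, and the median was 0.28. *Hspa1b*, an inducible HSP70 gene, was at 13.3 and 5.76 CPM in the WT WD pair and at 29.3 and 64.8 CPM in the knockout pair (log2 fold change 2.30, standard error 0.56, unadjusted p = 0.00977, adjusted p = 0.757 by edgeR). *Hspa1a* was at 29.5 and 11.7 against 52.1 and 70.7 CPM (log2 fold change 1.58, unadjusted p = 0.0187, adjusted p = 0.757 by edgeR). These genes are near-identical copies, so the division of reads between them is uncertain, but both were higher in both knockout libraries. The most abundant genes, *Hspa8*, *Hsp90ab1* and *Hsp90aa1*, had log2 fold changes of 0.16, -0.01 and 0.01, and *Hspd1* had 0.04. Leaving out WT WD replicate 2, 13 lay above and 1 below, against 37.6% and 37.4% of all genes, with a median of 0.25.

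**Figure D5:**
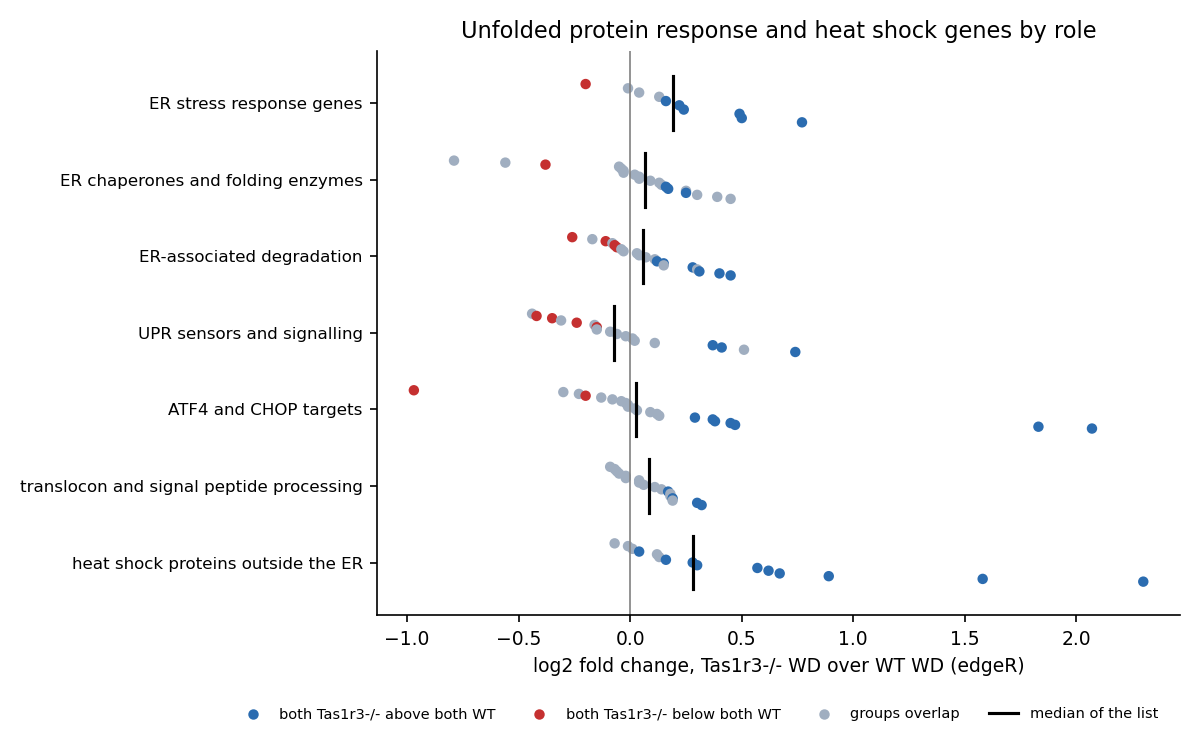
Log2 fold change by edgeR, *Tas1r3*-/- WD over WT WD, of each tested gene of 7 groups, with a black line at the median of each group. Blue points are genes with both knockout libraries above both WT libraries, red points the reverse and grey points overlap, and the medians lie between -0.08 for UPR sensors and 0.28 for heat shock proteins outside the ER.

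All genes with an ERSE in the promoter were also described as a group, whatever their function. Of these, 20 were tested, including *Hspa5*, *Hsp90b1* and *Calr*, and 13 were higher and 7 lower, with a median log2 fold change of 0.09. Without overlap, 3 lay above and 2 below, against 20.6% and 18.9% of all genes tested. The 17 tested genes outside the 10 had 10 higher and 7 lower, with a median of 0.05. With WT WD replicate 2 left out, 5 of the 20 lay above and 7 below, against 37.6% and 37.4% of all genes, and the median was -0.05. Besides the 3 genes above, ERSE matches were in the promoters of *Canx*, *Creld2*, *Dnajc3*, *Ero1b* and *Pdia6* among 17 promoters of the chaperone list (29.4%).

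The genes most like *Hspa5* over the 4 libraries were found among 10877 genes with a mean of at least 10 CPM, by the root mean square difference of their centred log2 CPM. They were *Papss2* at 0.0148, *Golgb1* at 0.0158, *Bag2* at 0.0222, *Chic1* at 0.0230 and *Ntn1* at 0.0321. *Golgb1*, which encodes the Golgi protein giantin, was at 215 and 122 CPM in the WT WD pair and at 238 and 234 CPM in the knockout pair, the same order of libraries as *Hspa5*. Of the other ER stress genes, *Pdia4* ranked 292, *Xbp1* 1381, *Hsp90b1* 1698, *Dnajb9* 2188, *Calr* 2817, *Herpud1* 4355, *Ddit3* 7645 and *Atf4* 8219, while *Sdf2l1* had too low a mean to be ranked. By this measure *Pdia4* came nearest. The measure also weighs the size of the differences, so a low rank does not by itself mean another order of libraries. *Xbp1*, at 120.5 and 98.8 CPM in the WT WD pair and 128 and 127 CPM in the knockout pair, had the same order as *Hspa5*.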

How the data were processed

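RNA from the hypothalamus of WD-fed mice was sequenced by the authors on Ion Torrent. The authors aligned the reads with STAR to mm39, using Partek Flow, and deposited an estimated count for every RefSeq transcript and library, not normalized, per the labels and the study's methods. The table lists 30930 transcripts, each with a total of at least 10, and many of the values are not whole numbers. Gene names of 30891 were taken from a RefSeq table of GRCm38.p6. The other 39 did not enter library sizes or tests. They held 1.96% of the total for WT WD replicate 1, 0.347% for replicate 2, and 1.49% and 2.49% for the knockout libraries. The design assumed counts per gene, so the estimated counts were summed by gene symbol and rounded for the tests.

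Genes were tested with edgeR 4.0.16 in R 4.3.3 (quasi-likelihood test, TMM, filterByExpr, Benjamini-Hochberg adjustment over all genes tested), tested on simulated data. CPM are relative to the named counts of each library scaled by TMM, with a prior count of 2 for log2 CPM. Alternatives were DESeq2 1.42.0, limma 3.58.1, RLE factors, total counts, filters of 1 count in any and of 10 counts in every library, a replicate block, no fold change threshold, and each library left out in turn. Counts without each library and tests of transcripts were added after the data were examined. Coordinates are from GENCODE M39 on GRCm39, matched by symbol. Promoters are from RefSeq. Protein sequences were not analysed here.

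The 10 genes and all lists were chosen with earlier results of these data known. Named are the 10 genes, *Tas1r3*, and from each list the 3 most abundant genes, the 2 with the highest and the 2 with the lowest fold change among those whose groups do not overlap, and any DEG. For marker lists the most abundant gene and genes at 0 are named. From the chaperone list the genes with an ERSE, and from the ATF4 and CHOP targets those with an amino acid response element, are also named. *Prkcd*, *Kl*, *Clic6*, *Prlr*, *Ccdc153*, *Col23a1*, *Crym*, *Atf6*, *Hspe1*, *Manf*, *Pdia6*, *Creld2*, *Ero1b*, *Pdia5*, *Selenof*, *Dnajb11* and *Ern1* were chosen after their values were seen.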

Additional observations from a re-analysis of the deposited data

How the results depend on the processing

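With 2 libraries per group, of which 1 was low in hypothalamic markers, and a biological coefficient of variation of 0.227 over all genes, precision was limited. The log2 fold changes of 3 of the 10 genes changed sign. When WT WD replicate 2 was left out the log2 fold change was -0.03 for *Hsp90b1*, -0.08 for *Calr* and 0.11 for *Ddit3*, and without *Tas1r3*-/- WD replicate 1 it was -0.05 for *Calr* and 0.18 for *Ddit3*, against -0.24 for *Ddit3* without *Tas1r3*-/- WD replicate 2. DEGs numbered 9 with DESeq2, which gave no adjusted p for 2218 genes, and 0 to 2123 with each library left out, the highest being without WT WD replicate 1. Among the 10 genes there were 0 to 3. Medians of ER chaperones, ER-associated degradation and UPR sensors changed sign as well. With each library left out, the median log2 fold change over the genes then tested lay between 0.13 and 0.30 for the 10 genes, from -0.06 to 0.26 for ER chaperones, from -0.01 to 0.06 for ER-associated degradation, from -0.12 to 0.01 for UPR sensors, from 0.02 to 0.07 for ATF4 and CHOP targets, from 0.01 to 0.24 for the translocon and from 0.17 to 0.32 for heat shock proteins. The median of ATF4 and CHOP targets was 0.05 with DESeq2, 0.06 with a filter of 1 count and 0.00 with one of 10 counts in every library. The labels do not say whether libraries with the same replicate number share a batch. The deviations of replicates 1 from their group means had r = 0.0821 across 14344 genes. This value cannot decide the question, since the libraries also differ in their tissue markers. With the replicate block there were 0 DEGs and 667 genes at an unadjusted p under 0.05, against 772 without it, and *Hspa5* had a log2 fold change of 0.56 (adjusted p = 0.805, edgeR). The block left all 10 genes without an adjusted call, as before, but the unadjusted p of *Sdf2l1* went from 0.0423 to 0.0597, and with DESeq2 it was 0.105.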
